A study of Mus musculus with 4 samples.

Results

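Patrolling monocytes are the nonclassical monocytes of blood: cells that crawl along the inside of vessel walls, take up debris and differ from the classical, Ly6C-high monocytes that enter inflamed tissue. In mice their identity depends on the transcription factor Nr4a1, and they arise largely from classical monocytes. In a liver with steatohepatitis, classical monocytes that enter the tissue are a main source of new macrophages, while patrolling cells sit mostly in the sinusoids and larger vessels. The cells described here were chosen by transcripts. A cell was kept if it had at least 250 detected genes and at most 25% of its UMIs (molecular barcodes, counted once for each transcript caught) from mitochondrially encoded genes. It was then counted as a patrolling monocyte if it held at least 1 UMI over Ear2, Adgre4, Ace and Treml4 and at least 1 UMI over Csf1r and Lyz2. It also had to hold 0 UMIs of Chil3, F13a1, Cd79a, Cd3e, Cd209a and Siglech and fewer than 5 UMIs over the complement genes C1qa, C1qb and C1qc. This rule found 256 of 24030 kept cells, from 24719 barcodes.

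The study profiled liver cells of male mice aged 24 weeks by 10x droplet single-cell RNA sequencing. All animals carried a Cyr61 allele flanked by loxP sites (Cyr61fl/fl) and had been fed a diet that brings on steatohepatitis (NASH diet) for 12 weeks. The groups were Control (2 libraries) and Cyr61 KO (2 libraries, called KO 1 and KO 2), and the labels do not name a Cre driver or the cells in which the gene was deleted. Nor do they say whether a library is 1 animal, so each p-value measures only the spread between these libraries, which may be technical.

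Depth differed between the libraries. They held 8290677 to 20537236 UMIs, with 4718, 7090, 7157 and 5065 kept cells in Control 1, Control 2, KO 1 and KO 2. The median kept cell had 1225, 2241, 1913 and 2869 UMIs in the same order. The patrolling monocytes numbered 90, 103, 42 and 21, and their median depths were 1051, 1545, 1617.5 and 1592 UMIs. Summed over these cells, there were 120457, 337119, 90001 and 56856 UMIs, so KO 2 carried the least information. Pairs of libraries shared 6 to 22 barcode sequences, and 1 barcode was a patrolling monocyte in both Control 2 and KO 1.

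The 4 marker genes were sparse in the cells they chose. Ear2 encodes a ribonuclease of the eosinophil-associated family, Adgre4 an adhesion G protein-coupled receptor (F4/80 family), Ace the angiotensin-converting enzyme and Treml4 a receptor of the TREM family. They lie at chr14:44102654-44103534, chr17:55749984-55853662, chr11:105967945-105989964 and chr17:48264295-48275360 (GRCm38), all protein-coding genes on the plus strand. Ear2 has close paralogs between which reads can be split or dropped, so its level is uncertain. Ear2 was seen in 97 of the 256 cells, Adgre4 in 115, Ace in 110 and Treml4 in 87. Of the cells, 125 were chosen by a single UMI over the 4 genes, 45 had 2 UMIs and 86 had 3 or more. Only 12 cells showed all 4 genes, and 151 showed 1. Lyz2, lysozyme of myeloid cells, was seen in 226 cells and Csf1r, the receptor that monocytes need to survive, in 156. Just inside the C1q limit, 4 cells had 4 C1q UMIs, and just outside it 1 cell had exactly 5.

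Levels of the chosen markers varied between libraries. In CPM (counts scaled to a common total over the summed patrolling monocytes of a library), Ear2 stood at 639, 255, 356 and 123 in Control 1, Control 2, KO 1 and KO 2. Adgre4 stood at 498, 261, 267 and 158.3, and Ace at 398, 255, 367 and 176. Treml4 was the most even, at 216, 196, 200 and 211 CPM. These genes chose the cells and were not tested.

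The label was checked with 24 nonclassical monocyte genes that the rule did not use. Classical monocytes were defined in the same way, by Chil3 or F13a1 UMIs with 0 UMIs of the 4 patrolling genes, and numbered 116, 133, 143 and 72. This set also carried neutrophil transcripts. A list of 11 neutrophil genes summed to 12112, 55517, 16445 and 16198 CPM in Control 1, Control 2, KO 1 and KO 2. In Control 2, 44 of the 133 cells held 2 or more of these UMIs. Of the 24 genes, 17 were higher in patrolling than in classical monocytes in 4 of 4 libraries, and 17 were higher than in all other kept cells in 4 of 4. In sum the 24 genes stood at 9539, 7324, 9800 and 6402 CPM in patrolling monocytes of Control 1, Control 2, KO 1 and KO 2. In classical monocytes the sums were 6709, 5213, 6401 and 6256 CPM, so that the kinds were close in KO 2. Since the same cells gave both the rule and these values, this is a description and carries no test.

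A few genes of the list, Cd300e, Eno3, Fabp4 and Cd36, were at or near 0 in classical monocytes. Cd300e, a receptor of the CD300 family, stood at 149, 53.4, 77.8 and 17.6 CPM in the patrolling monocytes of Control 1, Control 2, KO 1 and KO 2, and at 0 in the classical monocytes of all 4. Eno3, a muscle-type enolase, stood at 174, 80.1, 88.9 and 52.8 CPM, against 0 to 9.46 CPM in classical monocytes. The fatty acid carrier Fabp4 stood at 216, 148, 100 and 193 CPM, against 0 to 1.87 CPM. The scavenger and fatty acid receptor Cd36 stood at 141, 71.2, 178 and 35.2 CPM, against 0 to 2.73 CPM. Cd36 did not set the cells apart from macrophages with 5 or more C1q UMIs (80, 49, 8 and 3 cells). There it stood at 181, 212, 73.2 and 0 CPM, above the patrolling monocytes in both Control libraries. Cd300e, Eno3 and Fabp4 were lower in those macrophages than in the patrolling monocytes of each library. A count of 0 allows a level of up to 24.9, 8.9, 33.3 and 52.8 CPM in the patrolling monocytes of the 4 libraries and 5.18 to 14.2 CPM in the classical ones (3 counts). In each of these genes every measured patrolling value lay above every classical value.

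Surface and signalling genes of the list differed less. Fcgr4, an Fc receptor for IgG, stood at 191, 59.3, 88.9 and 35.2 CPM, against 11.2 to 37.9 CPM in classical monocytes, so that the ranges met. Itgal, the alpha chain of the integrin LFA-1 that patrolling cells use to crawl, stood at 415, 484, 522 and 229 CPM, against 116 to 170 CPM. Gngt2, a G protein gamma subunit, stood at 971, 685, 1333 and 704 CPM, against 249 to 530 CPM. Nr4a1 stood at 938, 697, 1133 and 686 CPM, against 398 to 1012 CPM, and was higher than in the classical monocytes of its own library in each case. In the C1q macrophages Fcgr4 stood at 130, 66.3, 48.8 and 0 CPM, above the patrolling monocytes in Control 2. Gngt2 stood there at 669, 623, 585 and 565 CPM, below the patrolling monocytes of each library.

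Some genes of the list did not separate the kinds of monocyte. Klf2 was lower in patrolling than in classical monocytes in 4 of 4 libraries (1020 to 1305 against 1277 to 1737 CPM). Cebpb, a factor on which survival of nonclassical monocytes depends, was higher in 1 of 4 libraries, as was Apoc2. The fractalkine receptor gene Cx3cr1 stood at 374, 225, 400 and 87.9 CPM, against 237, 145, 300 and 235 CPM in the classical monocytes of the same libraries, and KO 2 was the library with the lower patrolling value. In the C1q macrophages Cx3cr1 stood at 346, 296, 293 and 282 CPM, above the patrolling monocytes in Control 2 and KO 2. S1pr5 was at 0 in KO 2 and at 32.6 to 66.7 CPM in the other libraries.

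**Figure D1:**
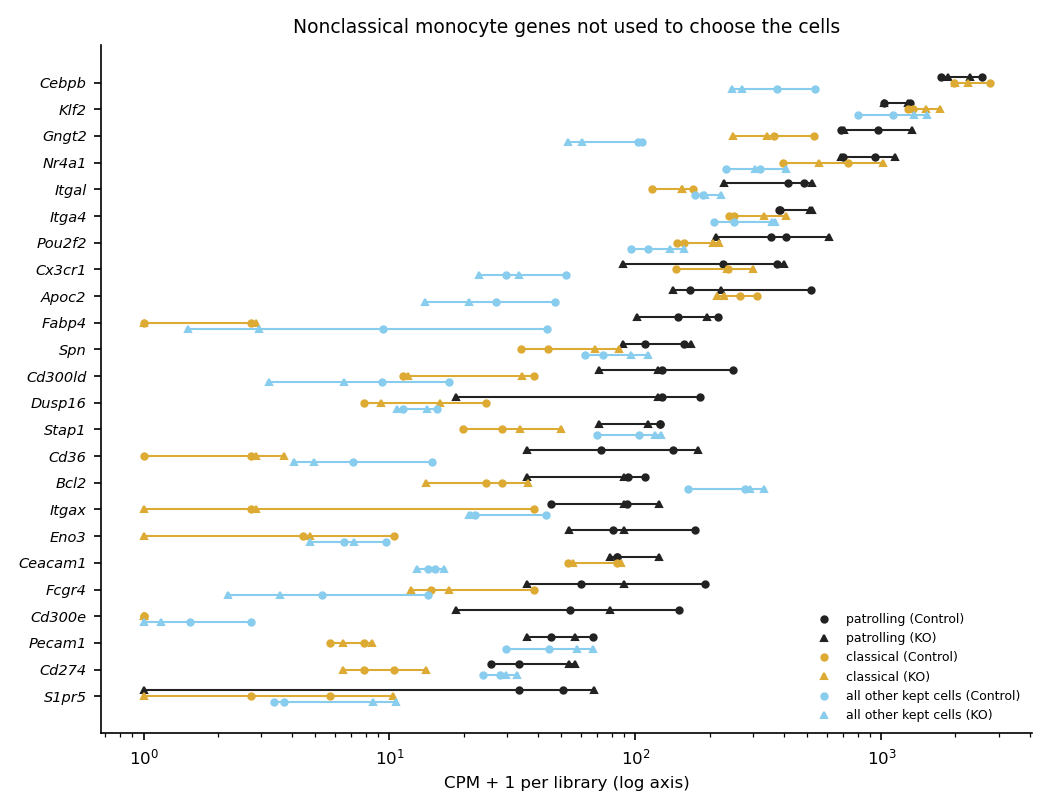
Levels of the 24 nonclassical monocyte genes that did not choose the cells, in CPM + 1 on a log axis, with 1 point per library (circles Control, triangles KO) and a line over the range of the 4 libraries. Black marks patrolling monocytes, yellow classical monocytes and light blue all other kept cells. Cd300e, Fabp4, Cd36 and Eno3 show the widest gaps between patrolling and classical monocytes, and Klf2 and Cebpb show none.

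Among 872 genes at or above 100 CPM in the patrolling monocytes of every library, those with the highest ratios to all other kept cells were ranked by the lowest ratio in any library, a rule set after the values were seen. The lipid mediator hydrolase Pla2g7 came first, at 208 to 440 CPM against 9.31 to 40 CPM in the other cells. The kinase Grk3 followed at 229 to 344 CPM against 9.31 to 32.9 CPM. The transcription factor Tcf7l2 stood at 176 to 374 CPM, against 24.4 to 94.6 CPM in classical monocytes. Hes1, a Notch target, stood at 208 to 422 CPM, against 24.6 to 137 CPM in classical monocytes. The C-type lectins Clec4a1 and Clec4a3 also ranked high, but Clec4a3 was above classical monocytes in 0 of 4 libraries.

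The number of marker UMIs in a cell went with its other identity genes. In cells that met every other part of the rule but had 0 UMIs of the 4 genes, the 24 identity genes summed to 3852 to 5081 CPM. In cells with 1 such UMI they summed to 6631 to 8276 CPM, above the cells with 0 in 4 of 4 libraries. With 3 or more they summed to 12824, 12461, 11045 and 6168 CPM in Control 1, Control 2, KO 1 and KO 2. KO 2 had only 6 cells in that class. The 2-UMI class broke the order in Control 2 (4058 CPM) and KO 2 (3656 CPM), the first of which held the 3 deepest cells and the second only 2 cells.

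Free RNA in droplets, and droplets with more than 1 cell, set a floor on such calls. Among cells with a Cd3e UMI, a T cell gene, 0.632, 0.561, 0.321 and 0.413% in Control 1, Control 2, KO 1 and KO 2 also held UMIs of both marker sets (exact binomial 95% intervals 0.290 to 1.2, 0.314 to 0.923, 0.129 to 0.660 and 0.179 to 0.813%). The median Cd3e cell had 1563, 3054, 2881 and 3986 UMIs. Before any exclusion, cells with both marker sets made up 3.52, 3.61, 1.69 and 1.46% of kept cells, above the Cd3e cells in 4 of 4 libraries. Cd3e cells that met the whole rule apart from Cd3e itself were 0.351, 0.336, 0.0917 and 0.103%, a value added after the data were seen. The share of patrolling monocytes, given with the first comparison, was above this level in 4 of 4 libraries, although in KO 2 the intervals met (0.257 to 0.633% against 0.0125 to 0.373%).

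Transcripts of other cell types were present in many of the chosen cells, and the largest amounts lay in few of them. UMIs of the 20 C1q and lipid-associated macrophage genes, which include genes that monocytes share, were found in 84 of 90, 95 of 103, 37 of 42 and 20 of 21 cells of Control 1, Control 2, KO 1 and KO 2. Neutrophil genes were found in 22, 56, 12 and 12 cells, and Kupffer cell genes in 23, 33, 11 and 9. All 5 eosinophil genes were at 0 in all 4 libraries, although Ear2 belongs to a family named for eosinophils. The list of 11 Kupffer cell genes summed to 324, 570, 411 and 369 CPM. Most of this was Id3, at 257, 528, 367 and 334 CPM, with Nr1h3 at 17.6 to 44.4 CPM and Slc40a1 in 3 libraries. The defining genes Clec4f, Vsig4, Cd5l, Marco and Cd163 were at 0, and Timd4 and Folr2 reached 8.30 and 2.97 CPM in 1 library each. A list of 7 mesothelial and fibroblast genes summed to 565 and 3070 CPM in Control 1 and Control 2 and to 0 in both KO libraries, from 5 and 3 cells. The same gap was present outside these cells. In all other kept cells the list summed to 1929 and 772 CPM in Control, with UMIs in 400 and 131 cells. In KO 1 and KO 2 it summed to 0.999 and 0.402 CPM there, with UMIs in 14 and 6 cells. The deepest cell of Control 2 had 67803 UMIs, 20.1% of all patrolling monocyte UMIs of that library, and 657 mesothelial and fibroblast UMIs. The second deepest had 25514 UMIs, 377 of them from that list. In KO 2 the deepest cell had 11135 UMIs (19.6%) and all 43 UMIs of Ccr7, a receptor of migrating dendritic cells. In Control 1, 1 cell held 99.3% of the UMIs of the haemoglobin gene Hbb-bs. The neutrophil list of 11 genes summed to 6401, 10732, 7478 and 40136 CPM in Control 1, Control 2, KO 1 and KO 2. No doublet caller was run, and list medians that the 3 cells over 20000 UMIs moved are given with and without them.

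**Figure D2:**
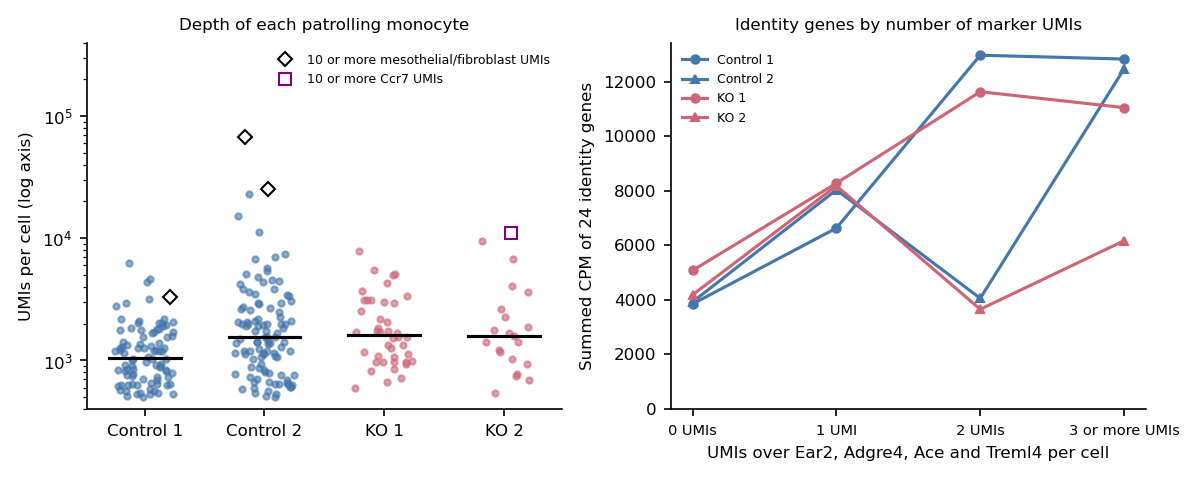
Left, UMIs of each patrolling monocyte by library on a log axis, with a bar at the median. Open diamonds mark cells with 10 or more mesothelial or fibroblast UMIs and the open square the cell with 10 or more Ccr7 UMIs, which include the deepest cells of Control 2 and KO 2. Right, summed CPM of the 24 identity genes in cells that met the rest of the rule, by number of UMIs over Ear2, Adgre4, Ace and Treml4: cells with 1 UMI lie above cells with 0 in each library.

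The first comparison asked whether patrolling monocytes were as frequent in KO as in Control livers. They were the smaller population in the KO libraries by both measures. They made up 1.91% of kept cells in Control 1 (exact binomial 95% interval 1.54 to 2.34%) and 1.45% in Control 2 (1.19 to 1.76%). In the KO libraries they made up 0.587% (0.423 to 0.792%) and 0.415% (0.257 to 0.633%). The groups did not overlap. The means were 1.68 ± 0.32% (SD, n = 2) and 0.501 ± 0.122% (SD, n = 2), a ratio of 0.298. An exact two-sided permutation test gave p = 0.333, the smallest value that 2 libraries against 2 allow, so the design cannot reach a threshold of 0.05.

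Counted against the classical monocytes, the libraries of each group were close to each other. Patrolling monocytes were 43.7% of patrolling and classical monocytes together in Control 1 (36.8 to 50.8%) and 43.6% in Control 2 (37.2 to 50.2%). They were 22.7% in KO 1 (16.9 to 29.4%) and 22.6% in KO 2 (14.6 to 32.4%). The ratio of the means was 0.519 with the same exact p of 0.333. Classical monocytes themselves were 2.46, 1.88, 2.0 and 1.42% of kept cells in Control 1, Control 2, KO 1 and KO 2, and there the groups overlapped. Both sets included cells with neutrophil transcripts, and the counts carry that limit. Their summed level was highest in Control 2 for classical and in KO 2 for patrolling monocytes. Intervals cover counting error only, and shares of recovered cells depend on digestion and on the removal of dead cells.

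The size of this difference depended on how cells with classical genes were treated. Before any exclusion, 617 cells held UMIs of both marker sets, and Chil3 or F13a1 UMIs removed 273 of them. This exclusion took 21.7 and 47.3% of such cells in Control 1 and Control 2, and 55.4 and 66.2% in KO 1 and KO 2. With cells allowed to hold Chil3 and F13a1, a setting chosen after the data were seen, the share was 2.71 ± 0.33% in Control and 1.27 ± 0.20% in KO (SD, n = 2), a ratio of 0.467. Against classical monocytes it was then 55.7 ± 7.7% and 42.8 ± 2.0%, a ratio of 0.769. Among cells with Cd3e, 1.34, 1.79, 1.10 and 0.775% held a Chil3 or F13a1 UMI. With each cell thinned to 500 UMIs the ratio was 0.295 among kept cells, and 0.330 when Chil3 and F13a1 were also allowed. The KO libraries stayed below both Control libraries in each of these settings.

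**Figure D3:**
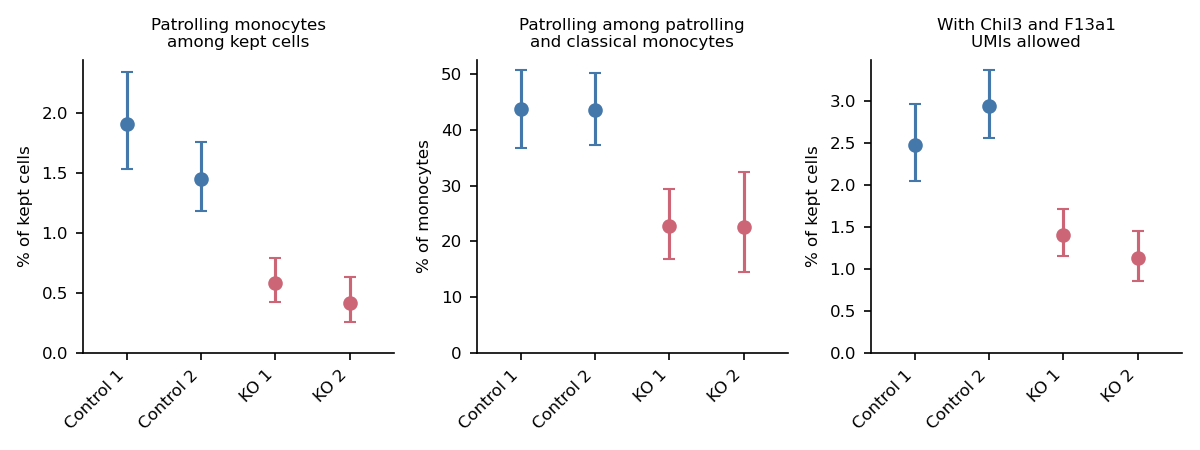
Share of patrolling monocytes in each library with exact binomial 95% intervals (blue Control, red KO): among kept cells, among patrolling and classical monocytes, and among kept cells when cells with Chil3 or F13a1 UMIs are allowed. Both KO libraries lie below both Control libraries in each panel, and the gap is narrower in the last one, with a ratio of 0.467 against 0.298.

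The second comparison asked which genes differed between the patrolling monocytes of KO and Control livers. UMIs were summed per library, and edgeR's quasi-likelihood test was applied to 1605 genes, with the genes of the rule left out. With this test 0 of 1605 genes passed (0% called at a Benjamini-Hochberg adjusted p below 0.05), 120 had an unadjusted p under 0.05, and DESeq2 called 6, all lower in KO (C3, AY036118, Igfbp5, Dcn, Saa3 and Timp2). The median standard error of a log2 fold change was 0.46, so differences of that size were not detectable at this depth. In the following, levels are CPM after TMM scaling (edgeR's correction for composition), and all log2 fold changes are KO over Control with their standard error (SE). On this scale 19.4% of the tested genes were higher and 17.8% lower in both KO libraries than in both Control libraries. On CPM without TMM scaling these were 403 higher and 200 lower genes, against 312 and 285 with it.

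None of the nonclassical identity genes differed between KO and Control beyond the test's threshold. Of the 24 genes, 15 were abundant enough to test, 0 passed, 5 had positive and 10 negative log2 fold changes, and the median was -0.18, against -0.01 over all tested genes. Without the 3 cells over 20000 UMIs, all in Control 2, the median of the list was -0.52. Nr4a1 stood at 976 and 735 CPM in Control and 1081 and 656 CPM in KO, so that the KO values lay on both sides of the Control values (log2 0.04 ± 0.36, SE, edgeR adjusted p = 0.994). Gngt2 stood at 1011 and 722 CPM in Control and 1271 and 673 CPM in KO. The alpha 4 integrin gene Itga4 was the member higher in both KO libraries, at 498 and 488 CPM against 397 and 406 CPM (log2 0.29 ± 0.33, SE, edgeR adjusted p = 0.945). Cd300ld, Dusp16 and Stap1 were lower in both KO libraries. Dusp16, a phosphatase that acts on stress kinases, had the lowest value of the list, log2 -1.06 ± 0.63 (SE, edgeR adjusted p = 0.787), and rested on 1 UMI in KO 2.

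Most tested MHC class II genes, whose products present antigen to CD4 T cells, had lower levels in both KO libraries, but 0 passed. Of 11 genes, 6 were tested, and 5 of these were below both Control libraries in both KO libraries, against 17.8% of all tested genes. The median log2 of the list was -1.02. The invariant chain gene Cd74 stood at 4605 and 2916 CPM in Control and 2415 and 1362 CPM in KO (log2 -0.98 ± 0.36, SE, edgeR adjusted p = 0.637). H2-Ab1 (chr17:34257689-34269419, plus strand) stood at 1884 and 1322 CPM in Control and 1176 and 320 CPM in KO. H2-Aa (chr17:34282744-34287823, minus strand) stood at 1927 and 1075 CPM and at 1049 and 252 CPM. H2-Eb1 (chr17:34305867-34316674, plus strand) stood at 2177 and 819 CPM and at 784 and 185 CPM (log2 -1.57 ± 0.62, SE, edgeR adjusted p = 0.637). The order of the libraries was the same in all 4 genes, with Control 1 highest and KO 2 lowest, and KO 1 lay under Control 2. Without TMM scaling 3 of the 6 genes kept the groups apart, against 200 of all 1605 tested genes in this direction. Macrophage transcripts were mixed in direction. C1q UMIs, which the rule limits, were found in 13 of 90 and 7 of 103 Control cells. In KO they were found in 2 of 42 and 0 of 21 cells. Apoe stood at 4649 and 1428 CPM in Control and 1737 and 791 CPM in KO, so that the groups overlapped. Of the C1q and lipid-associated macrophage genes, 10 were tested, 4 with positive and 6 with negative log2 fold changes. Their median was -0.37, or -0.11 without the deepest cells of Control 2. Macrophages with 5 or more C1q UMIs, in which each of the 4 MHC class II genes named above stood above the patrolling monocytes, were 1.70, 0.691, 0.112 and 0.0592% of kept cells. In patrolling monocytes with 0 C1q UMIs the log2 values of Cd74, H2-Ab1, H2-Aa and H2-Eb1 were -1.09, -1.15, -1.33 and -1.56.

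Of these MHC class II genes, H2-Eb1, H2-Aa and H2-Ab1 passed in a wider set of cells, and Cd74 did not (edgeR adjusted p = 0.0687). With Chil3 and F13a1 allowed, edgeR called 45 of 4079 genes, 3 higher and 42 lower. H2-Eb1 fell with a log2 of -2.47 ± 0.48 (SE, edgeR adjusted p = 0.00234), and H2-Aa and H2-Ab1 fell with -1.67 and -1.53 (edgeR adjusted p = 0.0212 and 0.0214). When the 3 cells over 20000 UMIs, all in Control 2, were also left out, 9 genes were called and these 3 were not among them, at log2 values of -2.34, -1.56 and -1.38 (edgeR adjusted p = 0.187, 0.358 and 0.439). In classical monocytes the corresponding log2 values were -0.61, -0.03 and -0.33. The difference between the kinds of monocyte did not pass for H2-Eb1 (interaction log2 -0.76 ± 0.67, SE, edgeR adjusted p = 0.961).

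A part of the classical monocyte genes had higher levels in both KO libraries, again without a call. Of 15 genes of this list with a row in the files, 9 were tested, 5 were higher and 1 was lower in both KO libraries. Over all tested genes 19.4% were higher and 17.8% lower in this way. The median log2 of the list was 0.72. Ly6c2, which encodes the Ly6C antigen that marks classical monocytes, stood at 104 and 234 CPM in Control and 519 and 992 CPM in KO (log2 2.07 ± 0.48, SE, edgeR adjusted p = 0.212). A single cell held 51.0% of the Ly6c2 UMIs of KO 1 and 88.1% of those of KO 2. S100a4, a calcium-binding protein of motile myeloid cells, stood at 1071 and 1116 CPM in Control and 2098 and 2204 CPM in KO (log2 0.97 ± 0.27, SE, edgeR adjusted p = 0.461). Its UMIs were spread over 29 of 42 cells in KO 1 and 11 of 21 cells in KO 2. Plac8 stood at 1279 and 1328 CPM in Control and 1960 and 2338 CPM in KO. With Chil3 and F13a1 allowed, the log2 values of Ly6c2, S100a4 and Plac8 shrank to 0.36, 0.46 and 0.13. Fibronectin, Fn1, was the tested member that was lower in both KO libraries, and Thbs1 and Vcan, too sparse to test, had 5 and 10, and 3 and 8 UMIs in Control and 1 and 0, and 2 and 1 UMIs in KO.

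Neutrophil genes were high in 1 library. S100a9 stood at 3335 and 5198 CPM in Control and at 3390 and 18570 CPM in KO, and the KO 2 value stood apart. Its UMIs lay in 9 and 27 Control cells and in 2 and 7 KO cells. A single cell held 25.1 and 31.0% of them in Control and 78.4 and 47.1% in KO. In KO 2 the neutrophil list summed to 40136 CPM in patrolling and 16198 CPM in classical monocytes. In the other libraries the classical sum was the larger. In KO 2, 6 of 21 patrolling cells held 2 or more UMIs of the list. All 5 tested genes of the neutrophil list had positive log2 fold changes, with a median of 1.30, and 0 passed. The median was 0.83 without the 3 cells over 20000 UMIs. In the setting that required UMIs of at least 2 of the 4 marker genes, which left 16 and 4 KO cells, S100a8 and S100a9 were called lower instead. A setting added after the data were seen left out cells with UMIs of Retnlg, Cxcr2, Camp, Ngp, Ltf or Ly6g. S100a8 and S100a9 were not among the genes it used. In Control 1, Control 2, KO 1 and KO 2, 83, 87, 40 and 14 cells remained. With this setting 4 genes were called, Dcn, C3, Timp2 and Hist1h2ap.

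**Figure D4:**
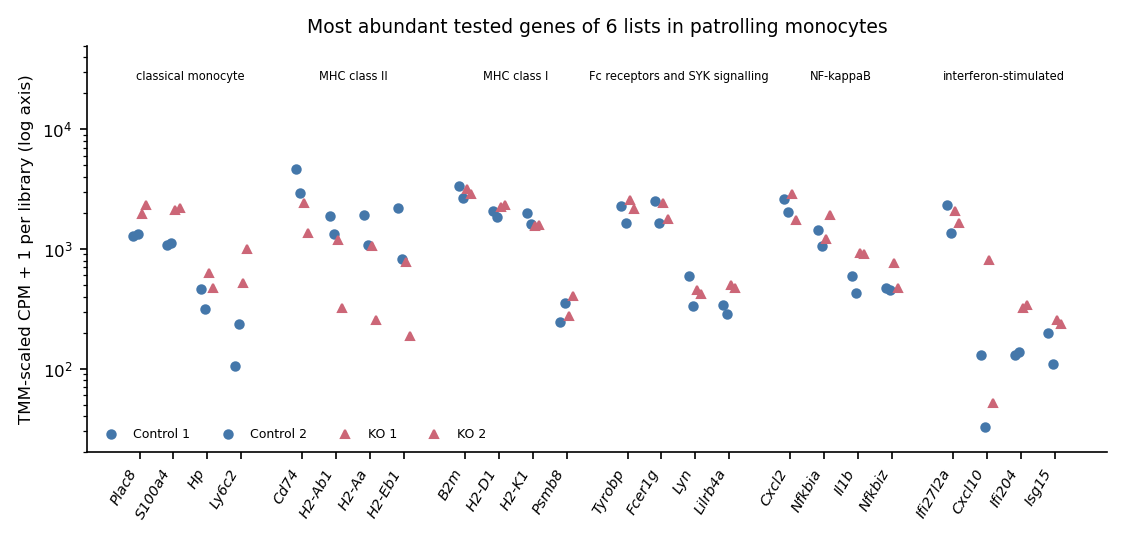
Levels of the 4 most abundant tested genes of 6 lists in patrolling monocytes, in TMM-scaled CPM + 1 on a log axis, with 1 point per library (blue circles Control, red triangles KO). Both KO points lie above the Control points for Plac8, S100a4, Hp, Ly6c2, H2-D1, Lilrb4a, Il1b, Nfkbiz, Ifi204 and Isg15. They lie below the Control points for Cd74, H2-Ab1, H2-Aa and H2-Eb1, where the lowest point is KO 2, and for H2-K1. The groups overlap for the remaining genes, among them B2m, Tyrobp, Fcer1g and Cxcl2.

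The study's title names SYK, NF-kappaB and PDGF signalling in macrophages, so these genes were read in the patrolling monocytes. Of 20 Fc receptor and SYK genes, 14 were tested and 0 passed, with a median log2 of 0.10, or -0.14 without the 3 cells over 20000 UMIs. Tyrobp and Fcer1g, the adaptors that recruit SYK, stood at 1647 to 2281 and 1638 to 2497 CPM in Control and at 2170 to 2542 and 1783 to 2437 CPM in KO. The kinase gene Syk itself had a log2 of -0.12 ± 0.49 (SE, edgeR adjusted p = 0.992). Of 25 NF-kappaB genes, 18 were tested and 0 passed, with a median log2 of 0.20, or -0.04 without those cells, and Nfkb1 stood at -0.15 ± 0.41 (SE, edgeR adjusted p = 0.992). Among the targets, the cytokine Il1b stood at 588 and 425 CPM in Control and 932 and 908 CPM in KO (log2 0.87 ± 0.33, SE, edgeR adjusted p = 0.637). Rela, with 5, 18, 6 and 3 UMIs, and Pdgfb, with 5, 16, 8 and 5 UMIs in Control 1, Control 2, KO 1 and KO 2, were too sparse to test.

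In the MHC class I, interferon, immediate early and mitochondrial lists 0 genes passed. Of 13 MHC class I genes 10 were tested, with a median log2 of 0.08, and B2m, its shared light chain, stood at 0.01 ± 0.27 (SE, edgeR adjusted p = 0.996). Of 20 interferon-stimulated genes with a row, 9 were tested, with a median of 0.16. The chemokine Cxcl10 stood at 130 and 31.3 CPM in Control and 805 and 50.5 CPM in KO, and 1 cell held 64.5% of its UMIs in KO 1. The DNA sensor gene Ifi204 stood at 130 and 138 CPM in Control and 318 and 336 CPM in KO (log2 1.28 ± 0.40, SE, edgeR adjusted p = 0.520). All 15 immediate early and heat shock genes, which respond to stress and to tissue digestion, were tested, with a median of 0.22, 11 of them with positive values and 0 called. Mitochondrially encoded genes had a median of 0.38, or 0.26 without the cells over 20000 UMIs, and 11 of 12 tested had positive values. In both KO libraries 7 of 12 tested were higher, against 19.4% of all tested genes. The median share of mitochondrial UMIs in these cells was 2.34 and 4.11% in Control and 5.86 and 3.5% in KO.

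Many of the smallest p-values belonged to genes that few cells carried. Dcn and Timp2, genes of matrix-producing cells, had edgeR adjusted p-values of 0.0739. Dcn had 48 and 543 UMIs in Control 1 and Control 2 and 0 in both KO libraries, and 91.7 and 51.2% of these UMIs lay in 1 cell of each Control library. Dcn was also called lower in classical monocytes (log2 -9.96, edgeR adjusted p = 0.000693). Saa3, an acute phase protein, had 1796 UMIs in Control 2, of which 98.6% lay in 1 cell. The complement gene C3 stood at 596 and 1413 CPM in Control and 191 and 84.1 CPM in KO (log2 -2.82 ± 0.54, SE, edgeR adjusted p = 0.114), and its log2 was -1.23 without the cells over 20000 UMIs. In that setting Dcn, Saa3 and Timp2 no longer had enough UMIs to be tested, and 0 of 1626 genes passed. An exception was the long noncoding RNA gene AY036118, with UMIs in 85 of 90, 96 of 103, 32 of 42 and 9 of 21 cells. It stood at 5478 and 3032 CPM in Control and 1197 and 269 CPM in KO (log2 -2.49 ± 0.57, SE, edgeR adjusted p = 0.212). Its edgeR adjusted p was 0.0614 without the cells over 20000 UMIs and 0.00015 in the wider set. AY036118 was also lower in classical monocytes (log2 -3.06, edgeR adjusted p = 0.0227). It was not alone in the wider set, where Gm42418 and Gm26917 were also called lower (log2 -1.45 and -1.64, edgeR adjusted p = 0.000514 and 0.0108). Of these, Gm42418 also passed there without the cells over 20000 UMIs (edgeR adjusted p = 0.0133). The origin of these reads was not tested. Among the higher genes, the interferon-inducible Ifi211 stood at 51.8 and 40.6 CPM in Control and 201.3 and 219 CPM in KO (log2 2.21 ± 0.47, SE, edgeR adjusted p = 0.151), and 1 cell held 92.3% of its UMIs in KO 2. Ptgs2, the inducible cyclooxygenase, stood at 51.8 and 46.9 CPM in Control and 265 and 151 CPM in KO (log2 2.12 ± 0.49, SE, edgeR adjusted p = 0.212), from 3 and 2 KO cells.

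**Figure D5:**
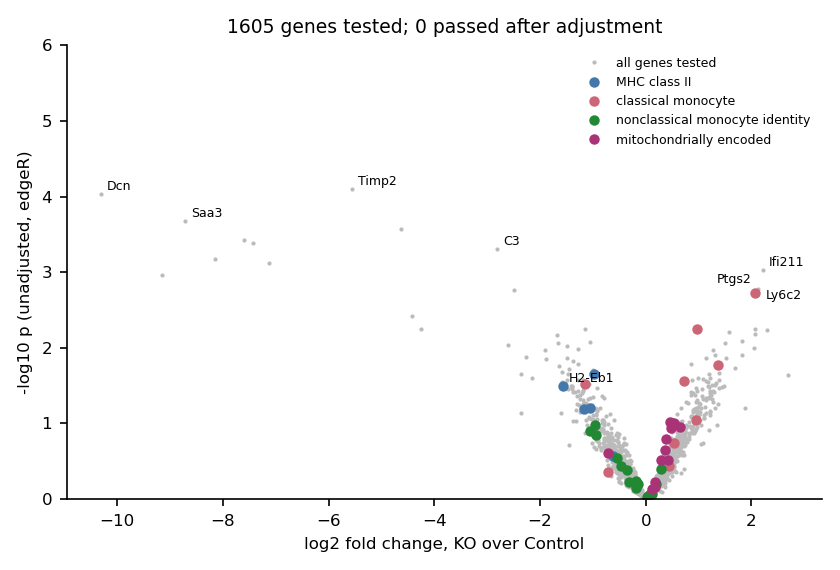
Log2 fold change (KO over Control) against -log10 of the unadjusted edgeR p for the 1605 tested genes, with MHC class II, classical monocyte, identity and mitochondrial genes in colour. No gene passed after adjustment, the points far to the left (Dcn, Saa3, Timp2) are genes held by few cells, and the MHC class II genes lie mostly at about -1.

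The gene targeted in the study, Cyr61 (Ccn1 in the files), gave no check of genotype in these cells. Patrolling monocytes held 0, 12, 0 and 0 Ccn1 UMIs in Control 1, Control 2, KO 1 and KO 2, and the 12 came from 2 cells, 1 of which held 83.3% of them. In classical monocytes 11 of 5124 genes passed (0.215%, edgeR). A pair of these that were lower in KO, Emp1 and Hebp1, had 4 and 5, and 3 and 9 UMIs in the Control patrolling monocytes and 0 in both KO libraries. Both were called lower in the wider set with Chil3 and F13a1 allowed, with log2 values of -3.92 and -5.18 (edgeR adjusted p = 0.00610 and 0.000285). They also passed there without the cells over 20000 UMIs (edgeR adjusted p = 0.0376 and 0.00894).

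The third comparison asked whether the KO difference of a gene differed between patrolling and classical monocytes. In a fit over both kinds of cell with the library as a block, 0 of 4523 genes passed (0% called by edgeR's quasi-likelihood test) and 242 had an unadjusted p under 0.05. The median standard error of this difference was 0.72 on the log2 scale. The sums of both kinds included the neutrophil transcripts given above. The 5 genes with the smallest p-values toward higher values in patrolling cells were the lectin receptor Clec4e (2.05 ± 0.38, SE, edgeR adjusted p = 0.333), Ifi211, Ptgs2, Wfdc21 and Ly6c2. Clec4e had a log2 of 0.97 in patrolling and -1.01 in classical monocytes. Toward lower values they were Saa3, C3, Timp2, Ezr and Fn1. Fn1 had a log2 of -1.15 in patrolling and 0.82 in classical monocytes (difference -1.78 ± 0.44, SE, edgeR adjusted p = 0.621).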

How the data were processed

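Droplet single-cell RNA libraries were made from frozen, digested livers passed over a dead-cell removal column, per the labels' protocols. The values the authors deposited are unnormalised UMI counts; Cell Ranger 3.1.0 and mm10 are named in the submitters' processing notes. The files hold 32285 features, with at least 500 UMIs per barcode. GENCODE M21 (GRCm38) gave positions and matched 99.8% of the identifiers. The libraries of a group were not duplicates (chi-square per degree of freedom 4.61 and 3.35).

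Counts of the chosen cells were summed per library and tested with edgeR 4.0.16 (TMM, filterByExpr, glmQLFit and glmQLFTest, adjusted p below 0.05) in R 4.3.3, KO against Control, n = 2 each, with no covariate. The rule's own genes were left out of testing. Shares were tested with an exact two-sided permutation test (scipy 1.17.1, Python 3.11.15). No doublet caller was run. The scripts were tested on simulated data.

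The cells, gene lists and tests were chosen with earlier results of these data known. Named genes were the identity list, Ccn1, Syk, Nfkb1, Rela and Pdgfb, up to 4 abundant tested genes per list, called genes (12 per direction), and the 5 smallest p-values in each direction of the interaction. Other genes (Dcn's companions, leading genes, Emp1, Hebp1, AY036118, Gm42418, Gm26917) were chosen after their values were seen. Alternatives were DESeq2 1.42.0, relative log expression (RLE) size factors, no low-count filter, a replicate block, stricter cell and marker rules, thinning to 500 UMIs (20 draws) and each library left out. Added after seeing the data were cells without mesothelial, Ccr7 or Fscn1 UMIs, without neutrophil gene UMIs, with Chil3 and F13a1 allowed, and without cells over 20000 UMIs. The neutrophil genes of that setting were Retnlg, Cxcr2, Camp, Ngp, Ltf and Ly6g.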

Additional observations from a re-analysis of the deposited data

How the results depend on the processing

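The lower share of patrolling monocytes in KO held its direction in every setting run. The KO to Control ratio among kept cells was 0.206 to 0.471 over the settings and 0.247 to 0.349 with each library left out, and it moved to 0.467 with Chil3 and F13a1 allowed and to 0.471 when cells over 20000 UMIs were also left out. Among patrolling and classical monocytes it moved to 0.302 with at least 2 of the 4 marker genes required, and was 0.517 to 0.520 with each library left out. The count of genes called between KO and Control moved from 0 to 6 with DESeq2, 3 with at least 2 of the 4 genes required, 4 without neutrophil gene UMIs, 45 with Chil3 and F13a1 allowed, 9 when cells over 20000 UMIs were also left out, and 109 without a filter on low counts. It was 23 to 76 with each library left out (76 without Control 1, 28 without Control 2, 33 without KO 1 and 23 without KO 2), where the lone library of a group is assumed to vary like the other group, and 0 in the other settings without a replicate block. Of the genes named, S100a8 (log2 -9.87) and S100a9 (log2 -6.63) reversed with at least 2 of the 4 genes required, a setting with 4 cells in KO 2. The cause was not tested. The count for the difference between patrolling and classical monocytes moved from 0 to 7 with at most 10% mitochondrial UMIs, 7 with at least 2 of the 4 genes required, 5 without mesothelial, Ccr7 or Fscn1 UMIs, 1 without neutrophil gene UMIs, 4 with Chil3 and F13a1 allowed, 1 when cells over 20000 UMIs were also left out, and 25 without a filter. It was 5 to 49 with each library left out. Replicate numbers did not pair the samples (correlation of deviations 0.09), and the replicate block called 2 genes, Saa3 and Dcn. With 21 patrolling monocytes in KO 2, depth limits every gene result.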
